A study of Mus musculus with 2 samples.

Results

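The cells described here were the 671 cells of a stimulated mouse lung fibroblast culture with the highest combined expression of 6 target genes of the nuclear receptor PPARG, out of 6708 stimulated cells that passed the filters. They belonged to a droplet single-cell RNA-seq study of 2 libraries and 12714 barcodes, in which captured RNA molecules are tagged and counted by unique molecular identifiers (UMIs). The stimulated library came from wild-type C57BL/6 lung cells and the control library from matched vehicle-treated cells of the same lung. A whole-lung suspension was plated, grown to passage 3 in medium with 10% FBS, and stimulated for 14 days. The protocol names rosiglitazone, which activates PPARG, at 10 µM, rhBMP4 at 4 µM and SB4315442 at 1 µM, alone or combined, and 1% ITS+3 supplement to induce a lipofibroblast-like state. The labels do not say which of these the stimulated library received, and the control cells had the same medium for the same time. With 1 library per group, cells are not replicates, so no test was made between cells or libraries, and every interval covers counting error only.

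PPARG is a ligand-activated transcription factor that pairs with RXR and switches on genes for lipid uptake, storage and burning. It is best known as the driver of adipocyte differentiation, and in the lung it is active in alveolar macrophages and in lipofibroblasts, the lipid-laden fibroblasts of the alveolar wall. The 6 genes that chose the cells cover several of its jobs. Fabp4 encodes a fatty acid carrier of adipocytes and macrophages, Angptl4 a secreted inhibitor of lipoprotein lipase, and Plin2 a coat protein of lipid droplets. Lpl encodes lipoprotein lipase itself, Pdk4 a kinase that holds back pyruvate oxidation, and Cpt1a the enzyme that admits fatty acids to mitochondria. Most of them also answer to PPARA and PPARD.

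A cell's score was the sum of the UMIs of the 6 genes per 10,000 UMIs of that cell. The 671 members were at or above the 90th percentile of the stimulated cells, a score of 7.11, and they were set against the 3354 cells at or below the 50th percentile of 3.14, called the low-scoring cells below. Members ran from 7.11 to 208.0 with a median of 9.12, and the low-scoring cells from 0 to 3.14 with a median of 1.90. The threshold cut a continuous range: the 5 lowest members scored 7.109 to 7.134 and the 5 cells just below it 7.100 to 7.108. Of the 7698 stimulated and 5016 control barcodes, 6708 and 4077 had at least 5000 UMIs and at most 20% mitochondrial UMIs, with a median of 16099 and 20860 UMIs. Members and low-scoring cells were of similar depth, with a median of 16680 and 16116 UMIs. Members had a median of 0.994% mitochondrial and 31.9% ribosomal protein UMIs, against 1.12% and 37.5% in low-scoring cells. Barcodes found in both libraries numbered 53, and 5 members carried one.

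**Figure D1:**
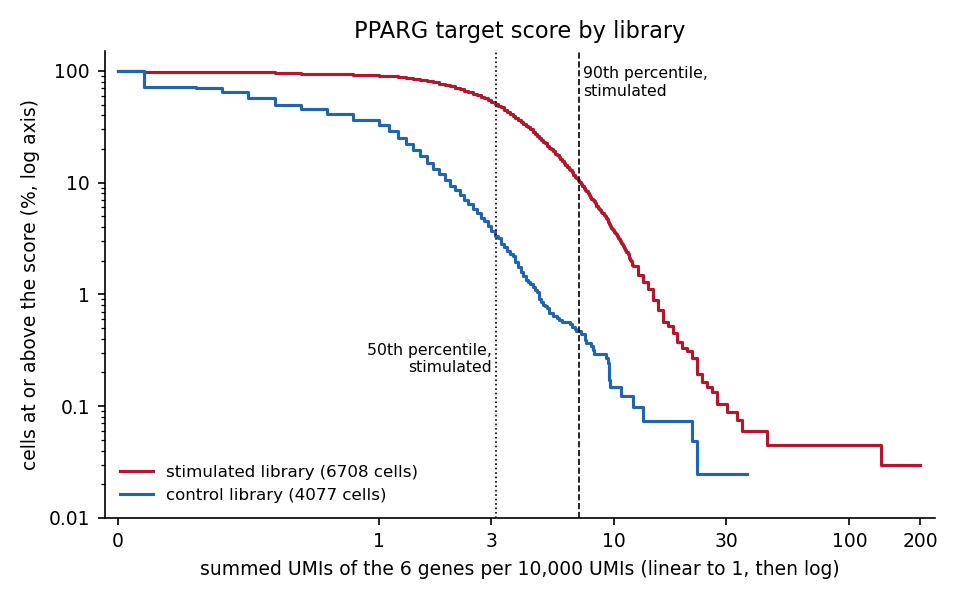
Percent of cells (log axis) at or above each score, in summed UMIs of the 6 genes per 10,000 UMIs, for 6708 stimulated and 4077 control cells. The stimulated curve lies right of the control curve, and 0.466% of control cells reach the dashed stimulated 90th percentile of 7.11.

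In the control library 19 of 4077 cells (0.466%, exact binomial 95% interval 0.281 to 0.727) scored as high as the stimulated members. The control library's own 90th percentile was 1.93. The 6 genes together stood at 389 CPM (UMIs scaled to a common library total) in the stimulated library and 85.8 CPM in the control library, and 2.49% of stimulated cells and 28.3% of control cells had no UMI of any of them.

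The score was mostly Fabp4. Fabp4 gave 55.5% of the 6 genes' UMIs in members, Angptl4 22.1% and Plin2 15.1%, while Lpl, Pdk4 and Cpt1a gave 2.51%, 2.30% and 2.51%. Fabp4 had the most UMIs of the 6 in 424 members (63.2%), Angptl4 in 176 (26.2%) and Plin2 in 64 (9.54%). These levels describe the choice and are not findings. Fabp4 averaged 608 CPM in members, 147 CPM in the cells between and 46.8 CPM in low-scoring cells. Angptl4 averaged 242, 158 and 67.1 CPM in the same order, and Plin2 166, 87.9 and 37.4 CPM. Lpl averaged 27.6 CPM in members and 7.63 CPM in low-scoring cells, and Pdk4 25.2 and 7.98 CPM. Cpt1a was highest in the cells between: 27.6 CPM in members, 31.0 CPM between and 18.2 CPM in low-scoring cells.

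The label of a shared PPARG target programme was borne out weakly. When the cells were chosen on 5 of the genes and the sixth was read out, Fabp4 was 1.45-fold higher in high-scoring than in low-scoring cells (1.39 to 1.52), Plin2 1.35-fold (1.26 to 1.45) and Angptl4 1.18-fold (1.11 to 1.24). Lpl was 1.60-fold higher (1.37 to 1.85) and Pdk4 1.45-fold (1.24 to 1.68), whereas Cpt1a was lower, at 0.81-fold (0.70 to 0.93). The Lpl value leaned in part on few cells. The 3 highest-scoring cells, described below, held 70 Lpl UMIs and stayed in this choice through their Fabp4. At equal depth 5.96% of the high-scoring and 5.69% of the low-scoring cells of this choice had an Lpl UMI. The Fabp4 value leaned on few cells as well. The 2 highest-scoring cells held 232 and 284 Fabp4 UMIs, and stayed in the choice without Fabp4 through 32 Lpl UMIs each. At equal depth 40.7% of the high-scoring and 36.2% of the low-scoring cells of that choice had a Fabp4 UMI. The Lpl and Fabp4 folds of these choices without those cells were not computed. Only 48.7% of members were chosen again without Fabp4, against 73.3% without Angptl4, 81.4% without Plin2, 93.9% without Lpl, 94.9% without Pdk4 and 92.3% without Cpt1a. Across the 6708 cells the Spearman correlations between pairs of the 6 genes ran from -0.025 to 0.106 (Angptl4 and Plin2), over cells that share 1 library and with sparse counts. Each cell's UMIs were also split at random into 2 equal parts. Cells chosen on 1 part differed 7.84-fold in the summed 6 genes there, 11.8 against 1.5 UMIs per 10,000, but 3.35-fold in the unused part, 9.12 against 2.72. In that part 44.9% of them were again in the highest 10%.

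**Figure D2:**
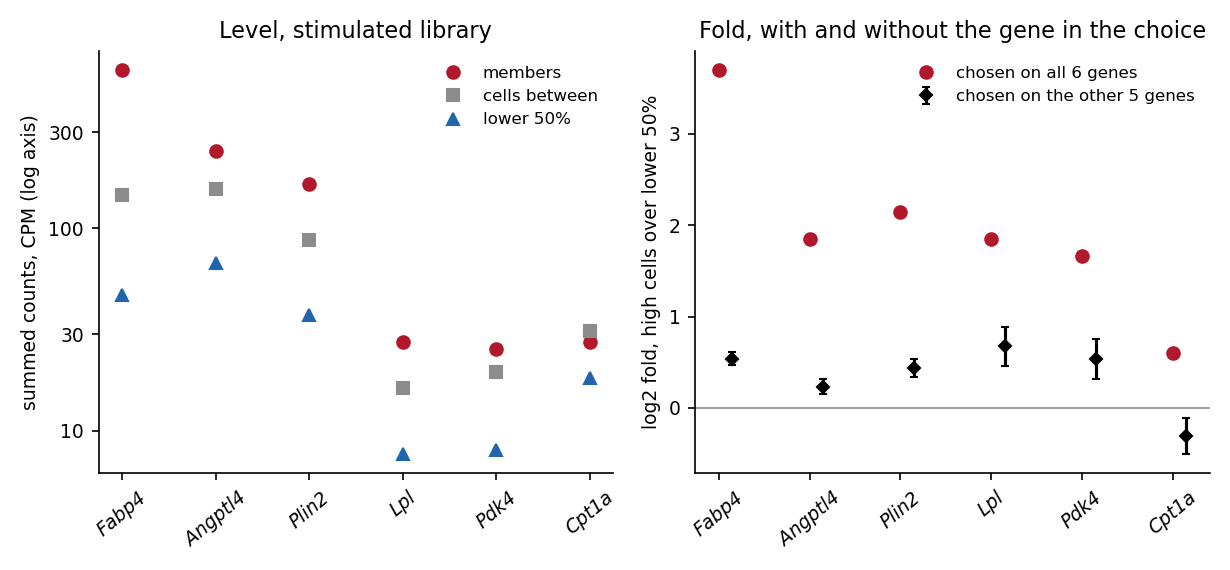
Left, level of each of the 6 genes in CPM (log axis) in members, cells between and the lower 50% of stimulated cells; right, log2 fold of high over low cells chosen on all 6 genes (circles) and on the other 5 (diamonds, with 95% counting intervals). Fabp4 separates the sets most, and Cpt1a falls below 0 once it is left out of the choice.

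At the very top of the range stood 3 cells with scores of 208.0, 200.4 and 131.3, while the next cell scored 43.0. They held 756 of the 7306 Fabp4 UMIs of all members (10.3%) and 70 of the 331 Lpl UMIs (21.1%), but 3 Angptl4 UMIs. The first of them carried 48 UMIs of 8 adipocyte markers, the second 32 and the third 2. The markers seen included Adipoq (adiponectin, 6, 1 and 1 UMIs in these cells), Plin1 and Cidec (both proteins of the adipocyte's large lipid droplet, with 14, 9 and 1 and with 7, 11 and 0 UMIs) and Cfd (the secreted protease adipsin, 14, 4 and 0 UMIs). Lep and Pck1 were at 0 in all members. The 3 cells held 24 of the 26 Plin1 UMIs, 18 of the 19 Cidec UMIs, 8 of the 10 Adipoq UMIs and all 18 Cfd UMIs among members, and also all 21 UMIs of Gpd1, which makes the glycerol backbone of triglyceride. Of Plin4, another droplet coat protein, they held 10 of 68 UMIs, and of Retn (resistin) 4 of 12, so most UMIs of these 2 markers lay in other members. Their fibroblast marker levels, 17.7, 26.4 and 23.9 UMIs per 10,000, lay under the medians of 56.3 in members and 52.3 in low-scoring cells. Cells with at least 5 adipocyte-marker UMIs numbered 5 of 6708 in the stimulated and 0 of 4077 in the control library, and apart from the cells with 48 and 32 none had more than 5. Without the 3 cells Fabp4 was 11.7-fold higher in members in place of 13.0-fold, and Lpl 2.86-fold in place of 3.61-fold.

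**Figure D3:**
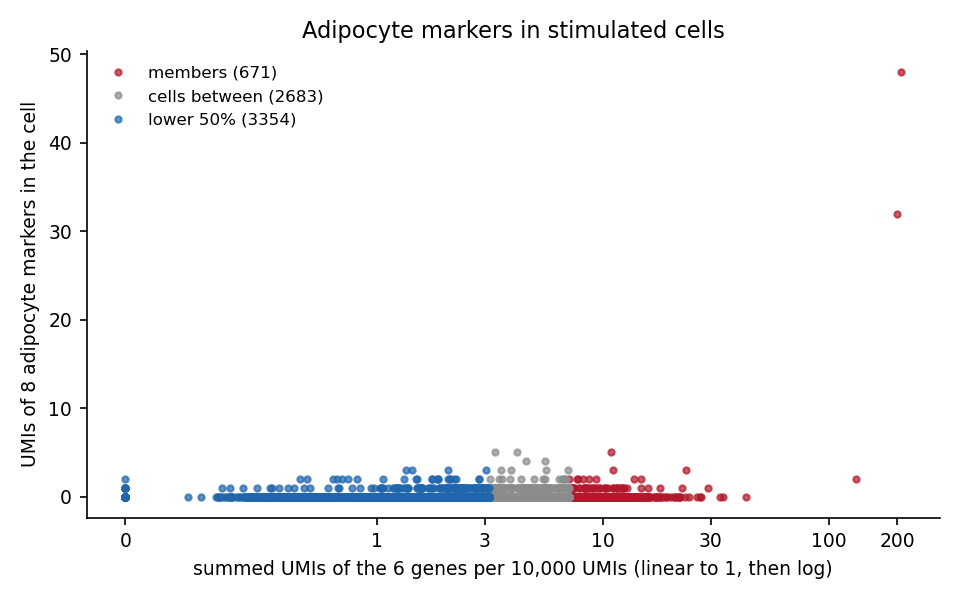
UMIs of 8 adipocyte markers in each stimulated cell against its score in UMIs per 10,000 (linear to 1, then log), for members, cells between and the lower 50%. Cells with 48 and 32 marker UMIs stand alone at scores of 208.0 and 200.4, and every other cell has 5 or fewer.

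The members were spread over all 9 clusters that the stimulated cells formed when the 6 genes were left out of the clustering, but unevenly. Cluster 4, a group of 584 cells led by Gzme (a granzyme protease), Isg15 (an interferon-induced ubiquitin-like protein), Ctsl (cathepsin L), Hspa5 (the main ER chaperone), Clu and the proteasome subunits Psmd6 and Psmd12, had 202 members. That was 34.6% of its cells (30.7 to 38.6), 30.1% of all members and, on the other side, 3.25% of the low-scoring cells. Its cells were also the deepest of the clusters with over 50 cells, with a median of 20767 UMIs. Among the other clusters of over 50 cells the share of members ran from 3.45% in cluster 5, led by Limch1 and Des, to 11.4% in cluster 3, with Flt1 among its leading genes. Cluster 1, led by Il1rl1 and Ace, had 6.45%, and the proliferating cluster 0, led by Hist1h2ap, Sgol1 and Top2a, had 6.73%. Fabp4 stood at 280 CPM in cluster 4 and 33.3 CPM in cluster 5. Because cluster 4 weighs so much in the members, the counts of each main gene list, and many single genes, are given below also for cells chosen within each cluster.

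**Figure D4:**
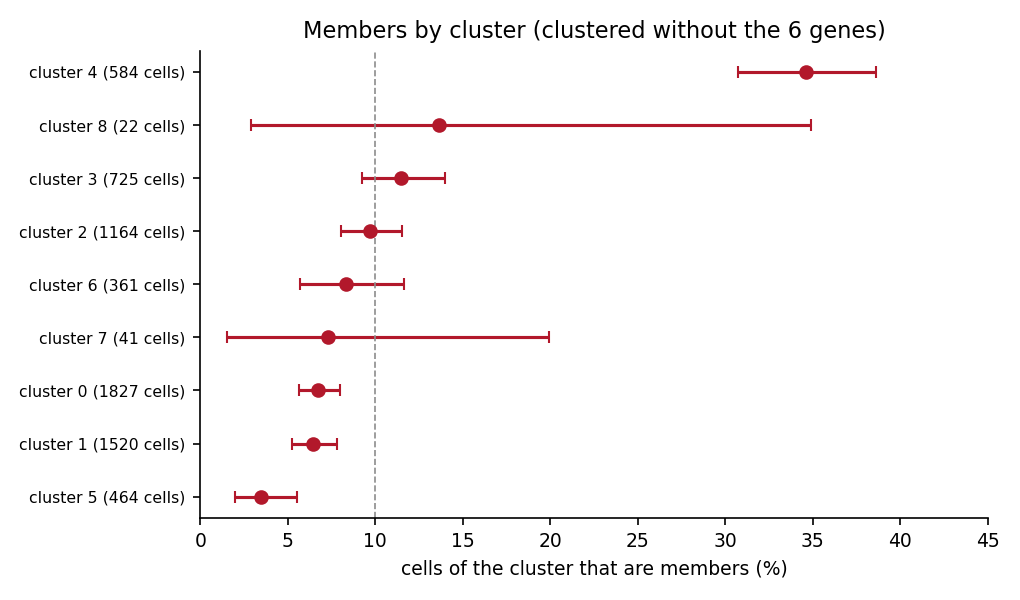
Percent of the cells of each cluster that are members, with exact binomial 95% intervals, for 9 clusters built without the 6 genes; the dashed line marks 10%. Cluster 4 stands apart at 34.6%, and cluster 5 is lowest at 3.45%.

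Outside the 6 genes, 530 of 6732 compared genes (7.87%) were at least 1.5-fold higher in members than in low-scoring cells and 54 (0.802%) at least 1.5-fold lower, and the median log2 fold over all compared genes was 0.05. Chosen within clusters, 64 of 6748 genes (0.948%) were higher and 20 (0.296%) lower, and 56 of these were among the 530 and 15 among the 54. Without cluster 4 the counts were 77 (1.15%) and 37 (0.551%). Within cluster 4 alone 323 genes (4.87%) were higher and 508 (7.66%) lower, and 205 of the 530 had the opposite sign there. Ribosomal protein UMIs made up less of the members, and library totals without ribosomal protein and mitochondrial genes moved every log2 fold by -0.14. The split was then 311 higher and 260 lower, so a log2 fold or list median between 0 and 0.14 changes sign with that scaling.

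The abundant genes with the largest folds included an annexin, tetraspanins, a chaperone and a lysosomal protease, and 1 lipid carrier, Fabp5. Anxa1, an anti-inflammatory phospholipid-binding protein, averaged 1031 CPM in members and 374 CPM in low-scoring cells, 2.75-fold (2.69 to 2.82). The middle 80% of members held 1.57 to 19.9 Anxa1 UMIs per 10,000 and that of low-scoring cells 0.678 to 7.54, so the sets overlapped widely. Anxa1 was still 1.74-fold higher within clusters, and 1.54-fold when Fabp4 was left out of the score. Lmcd1, a LIM-domain cofactor, was 2.75-fold higher (2.55 to 2.96) and 2.20-fold within clusters. Tmem37, a calcium channel subunit, was 3.28-fold higher (3.04 to 3.53) and 2.42-fold within clusters, but 1.16-fold without Fabp4 in the score. Fabp5, the epidermal fatty acid carrier and relative of Fabp4, averaged 324 CPM in members and 127 CPM in low-scoring cells (2.56-fold). It was 2.14-fold higher within clusters, but 0.843-fold without Fabp4 in the score. The tetraspanins Cd63 (2.40-fold) and Cd9 (2.65-fold) were 1.47-fold and 1.48-fold higher within clusters.

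Serpinb2, an inhibitor of plasminogen activators, averaged 102 CPM in members and 39.3 CPM in low-scoring cells (2.59-fold), and 1.5-fold within clusters, and 1 member held 10.3% of its UMIs. Prl2c2 (proliferin) was 2.97-fold higher, 1.67-fold within clusters and 1.40-fold without cluster 4, but nearly all of its transcript end is shared with Prl2c3 and other copies, so which copy was counted is uncertain. Among less abundant genes Hp (haptoglobin) stood at 38.8 CPM in members and 6.19 CPM in low-scoring cells, 6.27-fold (5.45 to 7.22). It was 4.74-fold higher without the 3 highest cells, which held 24.7% of its UMIs in members, and 4.69-fold within clusters. G0s2, an inhibitor of triglyceride lipase and itself a PPARG target in adipocytes, averaged 26.5 and 8.14 CPM (3.25-fold). The 3 highest cells held 42.8% of its UMIs in members, and without them it was 1.87-fold higher.

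Genes lower in members were fewer. Il1rl1, the IL-33 receptor, averaged 34.0 CPM in members and 89.6 CPM in low-scoring cells, 0.379-fold (0.342 to 0.42), and stayed low within clusters (0.427-fold) and without Fabp4 in the score (0.627-fold). Dio2, the enzyme that activates thyroid hormone, averaged 5.08 and 17.9 CPM (0.283-fold), and 0.296-fold within clusters. Crabp1, a retinoic acid carrier, averaged 10.3 and 29.4 CPM (0.351-fold), and 0.352-fold within clusters. Limch1, which activates non-muscle myosin, was 0.353-fold, 0.53-fold within clusters and 0.877-fold without Fabp4 in the score. Grem1, a BMP antagonist, averaged 57.2 CPM in members and 97.2 CPM in low-scoring cells (0.589-fold). It was 0.708-fold within clusters, and 1.32-fold without Fabp4 in the score. The mitotic genes Cenpf and Top2a were 0.55-fold and 0.614-fold, and 0.724-fold and 0.801-fold within clusters.

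Other PPARG targets stood higher with smaller folds. Of 42 further targets listed, 15 were abundant enough to compare, and 6 of them were at least 1.5-fold higher and 0 lower. Their median log2 fold was 0.42, against 0.05 over all compared genes, of which 7.87% were higher and 0.948% within clusters. The 6 were Fabp5, the mitochondrial beta-oxidation enzymes Acadl (67.5 CPM in members and 38.5 CPM in low-scoring cells, 1.76-fold) and Acaa2 (1.71-fold), Ech1 (147 and 88.8 CPM, 1.66-fold), the lipase Pnpla2 (1.51-fold) and the triglyceride-forming enzyme Dgat1 (1.52-fold). Chosen within clusters, 1 of 14 compared targets was higher, Fabp5, with Ech1 at 1.16-fold and Acaa2 at 1.23-fold, and the median was 0.23. The adipocyte targets Adipoq, Plin1, Cidec and Cd36 were under the level needed to compare, and most of their UMIs in members came from the 3 highest cells.

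Pparg itself was scarce, with 70 UMIs in members (5.83 CPM) and 209 in low-scoring cells (3.64 CPM), 1.60-fold (1.20 to 2.11). Cebpa, its partner in adipocyte differentiation, had 79 and 159 UMIs (6.58 and 2.77 CPM), 2.37-fold (1.79 to 3.13) and 2.93-fold within clusters. The 3 highest cells held 22 of its UMIs in members (27.8%), and without them it was 1.72-fold higher, and Pparg 1.54-fold. Of the 14 receptors, partners and regulators that could be compared 0 passed 1.5-fold either way, and the median was -0.13. Cebpb was level at 548 CPM in members and 553 CPM in low-scoring cells.

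Of the lipid pathways listed, mitochondrial fatty acid oxidation had the most genes past 1.5-fold. Of 19 compared genes 8 were higher and 0 lower, and the list's median was 0.43. Over all compared genes 7.87% were higher, and 0.948% when cells were chosen within clusters. Decr1, which prepares unsaturated fatty acids for oxidation, led with 29.6 CPM in members and 15.4 CPM in low-scoring cells, 1.92-fold, and was 1.38-fold within clusters. Acadvl, which takes the first step on long chains, was 1.80-fold higher, and Etfb, which passes on the electrons, averaged 217 and 135 CPM (1.61-fold), though part of its transcript end matches a near copy. Hadha was level at 1.03-fold. Chosen within clusters 0 of the 19 genes passed 1.5-fold and the median was 0.17, without cluster 4 1 gene did, and within cluster 4 alone the median was -0.07. Respiratory chain genes had a median of 0.32, with 7 of 39 higher, among them Uqcrc1 of complex III at 177 and 93.4 CPM (1.90-fold). Chosen within clusters 0 of 39 did, and the median was 0.08. Of 8 lipid droplet and triglyceride genes 3 were higher (G0s2, Plin3 at 1.57-fold and Dgat1), with a median of 0.29, and 1 of 7 within clusters. Of 11 fatty acid synthesis genes 0 passed either way, with a median of -0.14. Fasn, the fatty acid synthase, averaged 36.7 CPM in members and 40.4 CPM in low-scoring cells (0.909-fold). Lipofibroblast markers had a median of -0.17 over 7 compared genes, 0 higher and 1, Limch1, lower, and Pdgfra among them was 0.733-fold.

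Protein turnover and folding genes stood higher in members as groups, but their counts past 1.5-fold were almost all lost when cells were chosen within clusters. Over all compared genes the share higher also fell, from 7.87% to 0.948%, so that loss is not particular to these lists. The proteasome, chaperone and ER chaperone lists were chosen after values of these cells had been seen. Of 35 compared proteasome subunits 26 were at least 1.5-fold higher and 0 lower. Their median was 0.70, against 0.05 over all compared genes. The lid subunit Psmd12 averaged 54.5 CPM in members and 24.4 CPM in low-scoring cells (2.23-fold), and the ATPase Psmc2 81.8 and 40.2 CPM (2.03-fold). Psmd6, at 71.8 and 32.5 CPM (2.21-fold), and Psmd12 were also among the leading genes of cluster 4. Chosen within clusters, and likewise without cluster 4, 0 of 35 subunits were higher. The proteasome median was 0.20 within clusters and -0.12 within cluster 4 alone. Lysosome and autophagy genes had 12 of 28 higher and 0 lower, with a median of 0.46. Ctsl averaged 610 CPM in members and 231 CPM in low-scoring cells (2.64-fold), Gla, which cleaves galactose from glycolipids, 15.2 and 7.88 CPM (1.93-fold), and the autophagy receptor Sqstm1 83.8 and 49.3 CPM (1.70-fold). Chosen within clusters 1 of 28 was higher and the median was 0.26, with Ctsl at 1.40-fold, and within cluster 4 alone the median was 0.19.

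ER chaperones had 9 of 27 higher and 0 lower, with a median of 0.49, where 7.87% of all compared genes were higher. Chosen within clusters 0 of 27 were higher, against 0.948% of all compared genes, and the median was 0.18. Hspa5 averaged 399 CPM in members and 147 CPM in low-scoring cells, 2.71-fold (2.61 to 2.81), and 1.34-fold within clusters, but was 0.836-fold within cluster 4 alone. The disulfide isomerases Pdia6 and Pdia3 were 1.85-fold and 1.99-fold higher, Hsp90b1 averaged 446 and 258 CPM (1.73-fold) and the HSP70 cochaperone Dnajc3 153 and 91.4 CPM (1.68-fold). Calr, at 1209 and 958 CPM, and Canx, at 205 and 203 CPM, were 1.26-fold and 1.01-fold. The promoters of these genes are known for the ER stress element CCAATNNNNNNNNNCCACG, which ATF6 and NF-Y bind. The higher genes whose promoters match it were Hspa5, Hsp90b1, Dnajc3 and Pdia6, and the matches are shown for that reason. The sequences are RefSeq promoters on GRCm38.p6, written on the strand of the gene, with the element and its reverse form in capitals. They lie at chr2:34772005-34772063 (plus strand, Hspa5), chr10:86705513-86705676 (minus strand, Hsp90b1), chr14:118937807-118937865 (plus strand, Dnajc3) and chr12:17266471-17266529 (plus strand, Pdia6).
Hspa5: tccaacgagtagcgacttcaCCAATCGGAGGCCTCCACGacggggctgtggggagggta
Hsp90b1: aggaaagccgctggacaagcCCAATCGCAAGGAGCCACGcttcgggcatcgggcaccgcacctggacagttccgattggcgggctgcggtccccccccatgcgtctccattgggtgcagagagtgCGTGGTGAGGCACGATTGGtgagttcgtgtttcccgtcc
Dnajc3: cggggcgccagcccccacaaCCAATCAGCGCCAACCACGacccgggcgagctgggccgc
Pdia6: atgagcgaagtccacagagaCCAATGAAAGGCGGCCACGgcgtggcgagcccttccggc

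In the 250 bases before the start, on both strands, the element was found in 0.122% of all 27025 promoters, in 0.191% of the 5231 promoters of compared genes and in 0.978% of the 409 promoters of higher genes. Of 22 ER chaperone promoters looked up, 7 held it (31.8%), the other 3 belonging to Calr, Canx and Creld2, so genes with it were both higher and level in members. It begins 65 bases before the start in Hspa5, 98 in Pdia6 and 105 in Dnajc3, and Hsp90b1 has it at 212 and, on the other strand, at 107. The PPAR response element, a direct repeat of AGGTCA with 1 base between, was found in 10 of all promoters (0.037%) and in 0 of the higher genes' promoters. That says only that these letters were not in those windows. The antioxidant response element core TGACTCAGC was in 0.363% of all promoters and 0.306% of those of compared genes. Among those of higher genes it was in 0.978%, which is 4 promoters (Ctla2a, Ctla2b, Prdx1 and Tmem37). The E-box CACGTG, a palindrome, was in 6.05%, 9.27% and 8.07% of these sets. RefSeq promoters were found for 3 of the 6 genes of the rule.

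Matrix and contractile genes gave a mixed picture. Of 18 compared collagen genes 0 passed 1.5-fold either way, and the median was 0.01. Col1a1, a chain of collagen I, averaged 432 CPM in members and 479 CPM in low-scoring cells (0.902-fold). Mgp, the matrix Gla protein that restrains calcification, averaged 12677 and 6772 CPM (1.87-fold), and 1.5-fold within clusters. Spp1 (osteopontin) averaged 5302 and 2673 CPM (1.98-fold), was 1.34-fold within clusters and 0.873-fold within cluster 4 alone. Acta2, the smooth muscle actin of myofibroblasts, averaged 1991 CPM in members and 851 CPM in low-scoring cells (2.34-fold), and 1.51-fold within clusters. Of 20 compared contractile genes 4 were higher (Acta2, Tpm2, Lmod1 and Myl9) and 0 lower, and 1 within clusters. Their median was 0.14, and -0.03 with totals that leave out ribosomal protein and mitochondrial genes. For scale, 7.87% of all compared genes were higher, and 0.948% within clusters. Other matrix genes had 6 of 34 higher, and 4 within clusters, among them Efemp1 (fibulin 3) at 44.97 and 20.4 CPM (2.21-fold) and the microfibril protein Mfap5 at 544 and 316 CPM (1.72-fold). Postn (periostin) was scarcer, at 14.2 and 7.35 CPM (1.93-fold), and 1.84-fold within clusters.

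Interferon response genes had the highest median of the lists plotted, 0.75, with 6 of 7 compared genes higher. Isg15 averaged 29.98 CPM in members and 10.98 CPM in low-scoring cells (2.73-fold), but 1.17-fold within clusters, and it too leads cluster 4. Within clusters 0 of 7 were higher and the median was 0.30. Of all compared genes 7.87% were higher, and 0.948% within clusters. G2 and M phase genes had a median of -0.23, with 1 of 32 higher (Tubb4b) and 3 lower (Cenpf, Top2a and Cenpe). Of all compared genes 0.802% were lower. Within clusters 0 of the 32 passed either way. Without Fabp4 in the score, however, 20 of 31 were lower (median -0.63), against 1.05% of all compared genes. Within cluster 4 alone 30 of 31 were lower (median -1.17), against 7.66% of all compared genes. In control cells, by contrast, 7 of 27 were higher (median 0.22), against 9.33% of all compared genes. Of the members 20.9% (17.8 to 24.1) counted as cycling, against 26.2% of low-scoring cells (24.7 to 27.7).

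Of 22 oxidant defence genes 5 were higher and 1 lower, with a list median of 0.17, and within clusters 0 were higher and 1 lower. The peroxiredoxin Prdx1 averaged 1272 CPM in members and 597 CPM in low-scoring cells (2.13-fold), and Hmox1, which breaks down heme, 135 and 74.5 CPM (1.81-fold). Sod3 was the gene lower, at 8.24 and 18.9 CPM (0.436-fold). Glycolysis genes had a median of 0.38, and 0.17 within clusters, where 0 passed. Of 16 genes 2 were higher, Ldha (lactate dehydrogenase) at 759 and 451 CPM (1.68-fold) and Aldoa at 705 and 469 CPM. Both lists are to be read beside the 7.87% of all compared genes that were higher, and 0.948% within clusters.

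Some of the differences between members and low-scoring cells ran through the range of the score, and others lay mostly at its top. With the stimulated cells in 10 equal groups by score, Anxa1 averaged 315 CPM in the lowest, 423 in the fifth, 659 in the ninth and 1031 CPM in the highest, which holds the members. Tmem37 averaged 23.1, 33.1, 56.4 and 101 CPM in these groups, and Il1rl1 95.7, 71.5, 44.96 and 34.0 CPM. Serpinb2 and G0s2 rose mainly in the highest group, at 38.5, 44.8, 54.8 and 102 CPM and at 7.93, 7.44, 12.5 and 26.5 CPM. The G0s2 rise there rested in large part on the 3 highest-scoring cells, with 58, 51 and 27 UMIs. Of the Serpinb2 UMIs of that group 1 cell held 10.3%. The make-up of the groups changed too: cluster 4 gave 1.64%, 5.22%, 15.6% and 30.1% of their cells. Summed over lists, PPARG targets outside the rule gave 526, 588, 737 and 948 CPM, and proteasome subunits 3267, 3656, 4650 and 5477 CPM. Of the PPARG target sums Fabp5 alone gave 105, 134, 192 and 324 CPM. Collagens stayed nearly flat at 3039, 3088, 3042 and 2959 CPM. Members also met other high-expressing sets: 24.0% of them were in the highest 10% for interferon response genes, 19.97% for Spp1, 18.6% for contractile genes and 10.0% for G2 and M phase genes. Of the low-scoring cells 5.78%, 5.84%, 7.72% and 10.2% were in those sets.

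**Figure D5:**
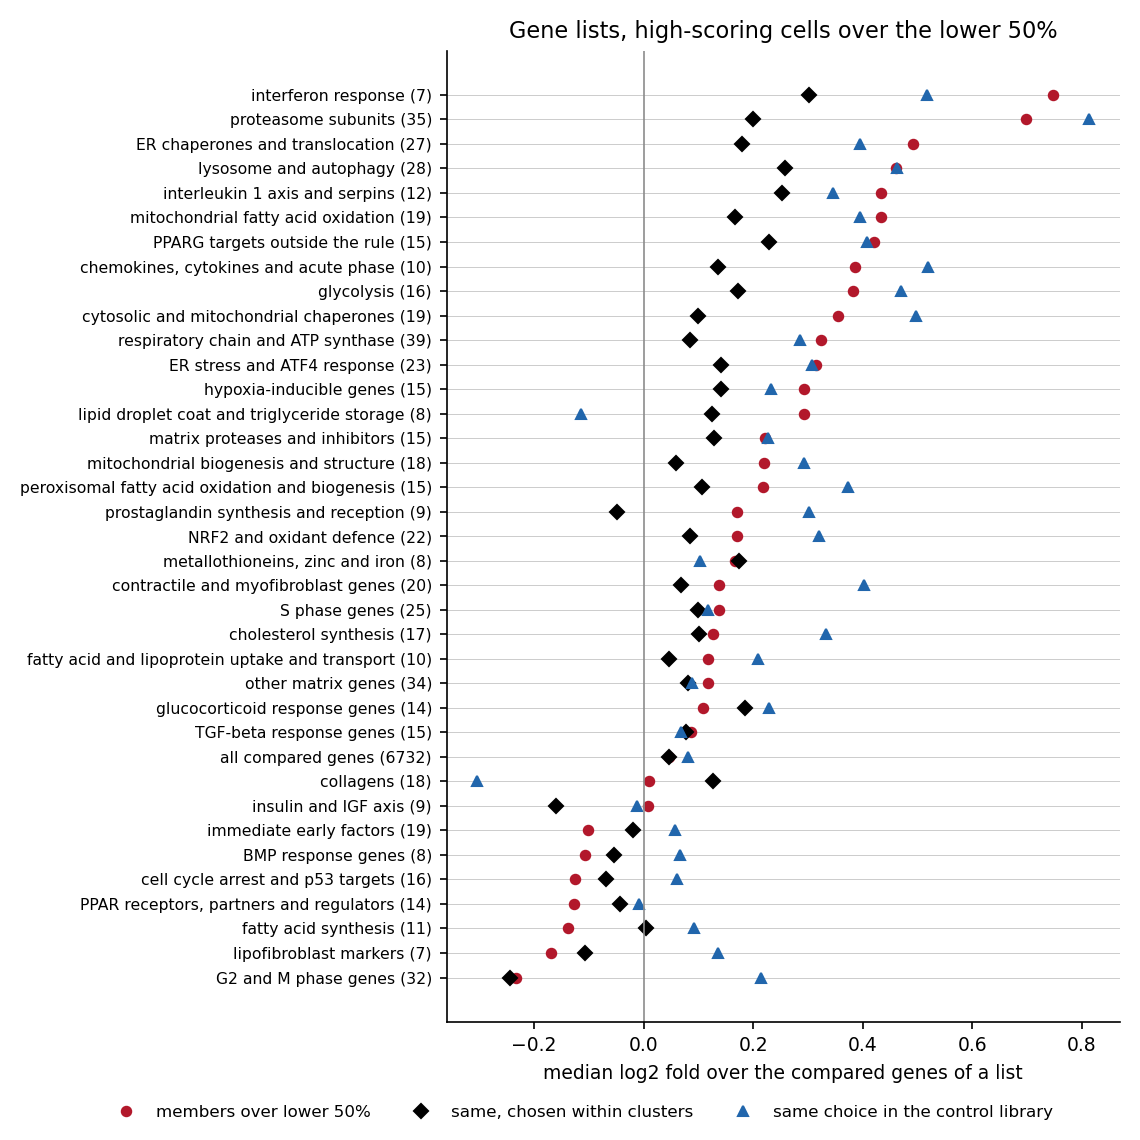
Median log2 fold, high-scoring over lower 50% of cells, over the compared genes of each list (number in brackets), for members of the stimulated library, for cells chosen within clusters and for the same choice in the control library without macrophage-marker cells. Interferon, proteasome, ER chaperone and lysosome lists lie furthest right for members, and most lists move towards 0 within clusters.

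Fibroblast markers were level in members, with 0 of 10 passing either way and a median of -0.10. Of 12 macrophage markers, Tyrobp, Fcer1g, C1qa, C1qb, C1qc, Adgre1 and Mrc1 were at 0 UMIs in members, and the list summed to 20.6 CPM in members and 18.4 CPM in low-scoring cells. The epithelial markers Epcam, Sftpc, Sftpb, Nkx2-1 and Krt5 and the lymphocyte markers Cd3e, Cd3d, Nkg7 and Ms4a1 were also at 0. Endothelial markers summed to 13.3 and 11.8 CPM. Mesothelial markers summed to 40.8 and 28.4 CPM, and 3 members lay in the mesothelial-led cluster 8.

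The same choice in the control library gave a partly shared set of genes at far lower scores. There 127 cells carried macrophage markers, and 66 of them were among the 408 highest cells (16.2%), so all 127 were left out. With them 721 of 6906 genes (10.4%) were higher and 49 (0.71%) lower. Without them, of 6848 genes 639 (9.33%) were at least 1.5-fold higher in the highest than in the low-scoring control cells and 22 (0.321%) lower. The 90th percentile was then a score of 1.85, and the score was led by another gene. In these highest control cells Plin2 averaged 129 CPM, Angptl4 68.3 CPM and Fabp4 34.5 CPM, against 166, 242 and 608 CPM in stimulated members. Among 6328 genes compared in both libraries, 490 were higher in stimulated and 582 in control cells. Of these, 348 were higher in both, which was 71.0% of the stimulated and 59.8% of the control higher genes. Lower genes numbered only 44 and 13, too few for the 0 shared between them to be read as a difference. Proteasome genes had a median of 0.70 in stimulated and 0.81 in control cells, lysosome genes 0.46 in both, and collagens 0.01 and -0.30. Hspa5 was 2.71-fold and 2.75-fold higher and Anxa1 2.75-fold and 2.07-fold. Some genes had other folds in the control library: Hp was 6.27-fold in stimulated and 1.28-fold in control cells, Serpinb2 2.59-fold and 0.594-fold (0.261 to 1.19), and Crabp1 0.351-fold and 1.75-fold. Pparg was 1.60-fold and 0.605-fold, and Cebpa 2.37-fold and 0.748-fold. Without the 3 highest cells the stimulated folds were 1.54 for Pparg and 1.72 for Cebpa, and that of Hp was also smaller, as given above. These differences between libraries were not tested.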

How the data were processed

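The deposited values are raw UMI counts of 27998 genes per barcode, 1 matrix per library. Per the file headers the authors wrote them with Cell Ranger 3.0.2, whereas version 1.3.1 is given, beside Seurat 3.0.0, per the submitters' processing notes. Which version counted the reads, the genome build and the annotation are not stated in the sources used here. Groups came from the sample titles, with 1 library each. The members and gene lists were chosen with earlier results of these data known.

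Kept cells had at least 5000 UMIs and a share of the 13 mitochondrial genes of at most 20%, and no doublets were removed. Counts were summed over each set of cells and scaled to CPM. Genes averaging 10 CPM or more over members and low-scoring cells were compared, and called higher or lower at 1.5-fold, with exact conditional Poisson 95% intervals. Shares of cells with a UMI were taken after thinning every cell to 5000 UMIs, with exact binomial intervals. A cell counted as cycling with at least 5 UMIs of 12 cycling genes at that depth. Stimulated cells were clustered without the 6 genes (2000 variable genes, 30 principal components, 15 neighbours, Leiden resolution 0.6, leidenalg 0.10.2, scikit-learn 1.9.0). Control cells with at least 10 UMIs of 12 macrophage markers counted as macrophage-marker cells. Python 3.11.15, numpy 2.4.6, scipy 1.17.1 and pandas 2.3.3 were used, and edgeR 4.0.16 for TMM scaling only. The fold and interval script was tested on simulated data.

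The named genes were the 6 genes, the 12 largest folds each way with a mean of at least 25 CPM, the 3 most abundant genes and the largest fold of every list, and the 5 largest CPM differences each way. Other genes named, such as Pparg, Cebpa, the adipocyte markers and further list members, were picked after their values were seen. Transcript ends were checked for near copies with minimap2 2.31 (last 400 nt, 90 nt windows, at most 2 mismatches), and 18 of 176 genes had a shared window. Some genes are not reported here. In all 30 alternative settings were computed.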

Additional observations from a re-analysis of the deposited data

Results flagged for a closer look

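Among the genes named by rule with a mean of at least 10 CPM in each library, 3 passed 1.5-fold in opposite directions in high-scoring over low-scoring cells, with counting intervals on that side of 1. Nrn1 (neuritin) was 0.573-fold in stimulated and 1.51-fold in control cells. Cd24a, a surface glycoprotein, was 0.576-fold in stimulated and 1.62-fold in control cells. Sod3, the extracellular superoxide dismutase, was 0.436-fold in stimulated and 1.71-fold in control cells. Control values leave out macrophage-marker cells. The difference between libraries was not tested, since each group has 1 library.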

How the results depend on the processing

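No paired analysis was possible because each group has 1 library, so fewer than 2 pairs exist. Against 530 higher and 54 lower genes, a lower fold threshold gave 1407 and 493 and a threshold of 2-fold gave 57 and 9. A least mean of 5 CPM gave 101 lower, and one of 25 CPM gave 349 and 17. The 80th percentile gave 298 and 28, the 95th 142 lower, all other stimulated cells as comparison 307 and 32, and the lowest-scoring 10% 125 lower. Weighting the 6 genes equally gave 211 higher, leaving Plin2 out of the score 258, and thinning every cell to 5000 UMIs, which leaves few UMIs per score, 117. Totals without mitochondrial and ribosomal protein genes gave 311 and 260, choosing within clusters 64 and 20, leaving out cluster 4 gave 77 higher, and cluster 4 alone 323 and 508. Settings that use cluster 4, the control without macrophage-marker cells, the small clusters or the 3 highest cells were chosen after seeing the data.

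Medians that reversed are those of lists whose median, by its order-statistic 95% interval over the genes, lay on 1 side of 0. The median log2 fold of S phase genes was -0.031 with equal weights, -0.16 without Fabp4, -0.0044 with the reduced totals and -0.39 within cluster 4 alone. The median log2 fold of contractile and myofibroblast genes was -0.026 with the reduced totals. Within cluster 4 alone the medians were -0.11 for ER chaperones, -0.19 for other chaperones, -0.068 for glycolysis, -0.13 for mitochondrial biogenesis, -0.067 for mitochondrial fatty acid oxidation, -0.12 for the proteasome and -0.052 for the respiratory chain. Genes that reversed there on the log2 scale were Ccl2 (-0.16), Ech1 (-0.014), Fdps (-0.088), Hspa5 (-0.26), Ldha (-0.022), Mmp3 (-0.12), Mt3 (-0.47), Pcna (-0.46), Pdia6 (-0.10), Prdx1 (-0.094), Psma7 (-0.15), Psmb3 (-0.043), Psmd12 (-0.10), Spp1 (-0.20) and Tubb4b (-0.36). Without Fabp4 in the score Aldh1a1 (-0.25), Fabp5 (-0.25), Serping1 (-0.17) and Grem1 (0.40) reversed, and Cpt1a did when chosen on the other 5 genes (-0.30) or on 1 part of the UMIs (-0.23). Within cluster 4 alone some of these genes had counting intervals of the fold that span 1, such as Ech1 (0.865 to 1.13) and Fdps (0.778 to 1.13). Others did not, such as Hspa5 (0.771 to 0.905) and Spp1 (0.853 to 0.893). The cause of the sign changes was not tested. Of 1064 list medians under alternatives, 997 lay within that interval, and 88 had the other sign, 19 of them for the insulin and IGF axis. Depth limits the genes at 0 UMIs in members and those under 10 CPM, Pparg included.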
